A study of Mus musculus with 4 samples.

Results

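The genes described here encode the nuclear subunits of the respiratory chain and the ATP synthase, the machinery of oxidative phosphorylation. They were picked by symbol: a probe set had to name exactly 1 gene, and that symbol had to begin with Ndufa, Ndufb, Ndufc, Ndufs, Ndufv, Sdha, Sdhb, Sdhc, Sdhd, Uqcr, Cox4i, Cox5, Cox6, Cox7, Cox8 or Atp5. Ndufaf genes, which encode assembly factors of complex I, were left out. The rule found 175 probe sets for 86 of the 18193 genes named on the array, and it used no measured value. Complex I had 34 of these genes, complex II 4, complex III 8, complex IV 19 and complex V 17. The letters of the rule also took in 4 Sdhaf genes, which encode assembly factors of complex II and are counted apart. Ndufa4 and Ndufa4l2 were placed with complex IV, where the NDUFA4 protein is found.

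The study compared stimulated CD4 T cells of wildtype 2D2 Tg mice with those of miR-146a-deficient 2D2 Tg mice, with 2 arrays for each genotype. All 4 samples carried the 2D2 transgene, which encodes a T cell receptor against a myelin protein, so no group without the transgene was measured. Sorted naïve CD4 T cells were stimulated for 3 days with plate-bound anti-CD3 at 5 μg/ml and anti-CD28 at 1 μg/ml. The labels give anti-CD28 as soluble in one place, while another can be read as plate-bound. RNA was taken on day 3, and 100 ng of it was labelled for the Affymetrix Mouse Genome 430 2.0 array. The labels give no age of the mice, and they do not say whether the deletion was confined to T cells.

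Complexes I to IV pass electrons from NADH and succinate to oxygen and, except for complex II, pump protons across the inner mitochondrial membrane; complex V, the ATP synthase, uses that proton gradient to make ATP. Most subunits are encoded in the nucleus, and a small core is encoded by mitochondrial DNA. T cells expand their mitochondria and raise both glycolysis and respiration after activation through the T cell receptor and CD28, and miR-146a is an activation-induced microRNA that restrains NF-κB signalling through Traf6 and Irak1.

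The microRNA missing in one genotype and its closest relative share the seed, the stretch at bases 2 to 8 that pairs with targets. Both mature sequences are shown because the relative remains encoded in the deficient cells. They come from RefSeq on GRCm38.p6, each has 22 bases, and the seed is in capitals.
mmu-miR-146a-5p: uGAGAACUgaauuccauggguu
mmu-miR-146b-5p: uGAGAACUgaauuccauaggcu
The first lies at chr11:43374435-43374456 on the minus strand and the second at chr19:46342790-46342811 on the plus strand. The level of miR-146a itself was not analysed here, so the genotype rests on the labels.

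Promoter sequences were at hand for 71 of the 86 genes, each window running from 250 bases before to 50 bases after an annotated start in RefSeq on GRCm38.p6. The core letters of the site bound by nuclear respiratory factor 1 (NRF1), a near-palindrome with a free base in its middle that is shown in capitals further down, stood on either strand in a window of 17 of these 71 genes (23.9%). The share was 5.19% of all 27025 genes with a window and 11.0% of the 10340 among them that were tested on the arrays. CCGGAAG, the core of sites for the GABPA factor, stood in 20 of the 71 (28.2%), against 9.93% of all genes and 19.1% of tested genes. AAGATGGC, the core of YY1 sites, stood in 9 (12.7%), against 3.19% and 5.04%; it can overlap a GABPA match, since one ends and the other begins with AAG. TCAAGGTCA, bound by oestrogen-related receptors, stood in 2 (2.82%), against 0.466% and 0.358%. The cyclic AMP response element TGACGTCA stood in 3 (4.23%), against 2.03% and 3.43%, and the TATA box letters TATAAA in 9 (12.7%), against 15.7% and 9.25%. By complex, the NRF1 letters stood in 5 of 31 genes with a window for complex I and 2 of 3 for complex II. They stood in 1 of 5 for complex III, 1 of 13 for complex IV and 6 of 15 for complex V. Among the Sdhaf genes, which are no subunits, they stood in 2 of 4. A match describes the letters in a window and shows no binding.

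Short stretches around 5 of these matches are printed for genes whose values are given below, 1 from each complex, to show what the letters look like upstream of a start. All run 5′ to 3′ on the minus strand, which is the strand of each gene, and capitals mark the NRF1 letters, or the GABPA letters for Uqcr11.
Ndufa5: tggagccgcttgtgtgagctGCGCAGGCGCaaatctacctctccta
Sdhd: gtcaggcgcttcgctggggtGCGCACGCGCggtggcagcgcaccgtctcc
Uqcr11: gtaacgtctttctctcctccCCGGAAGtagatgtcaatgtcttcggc
Cox6a1: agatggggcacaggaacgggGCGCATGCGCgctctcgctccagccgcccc
Atp5k: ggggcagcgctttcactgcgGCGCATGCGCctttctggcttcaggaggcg
The Ndufa5 stretch is chr6:24527691-24527736, and its capitals lie 26 to 17 bases upstream of 1 annotated start and 190 to 181 bases upstream of another. The Sdhd stretch is chr9:50603899-50603948, with the capitals 79 to 70 bases upstream. The Uqcr11 stretch is chr10:80406861-80406907, with the capitals 66 to 60 bases upstream. The Cox6a1 stretch is chr5:115349091-115349140, with the capitals 162 to 153 bases upstream. The Atp5k stretch is chr5:108434420-108434469, with the capitals 50 to 41 bases upstream.

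Each value below is a probe set's signal, a linear hybridisation intensity that the authors scaled so that the 2% trimmed mean was 500 on every array. For a gene with several probe sets, the one with the highest mean signal is given. Differences are deficient minus wildtype on the scale of log2(signal + 14.7), with the standard error (SE) from limma, and p-values were adjusted over all 12819 genes that passed a filter on low signal. T cell identity was checked first: Cd3d, a chain of the T cell receptor complex, read between 16065 and 17736 on all 4 arrays. The summed signal of the 10 T cell markers was 51635 and 59130 in wildtype and 53076 and 56687 in deficient cells. Cd4 itself read 605 and 655 in wildtype and 462 and 725 in deficient cells. Cd8b1, a CD8 marker, read 707 and 767 in wildtype and 644 and 888 in deficient cells. That the cells were CD4 T cells therefore rests on the labels. Of 15 B cell markers named on the array, 13 were tested and all 13 read higher in deficient cells, with a summed signal of 5232 and 7554 in wildtype and 14415 and 14939 in deficient cells. Ighm alone gave 3502 and 5061 of these sums in wildtype and 9064 and 8271 in deficient cells. Ms4a1, Blnk and Cd22 passed the test. Pax5, the factor that defines B cells, was below the filter, at 68.9 and 23.9 in wildtype and 11.3 and 21.9 in deficient cells. Fcrla was also below it, at 40.7 and 16.1 in wildtype and 30.1 and 21.5 in deficient cells. All 5 tested CD8 and cytotoxic cell markers and all 3 tested NK cell markers also read higher, and none passed; their sums were 7025 and 7623 against 9708 and 10697, and 454 and 313 against 667 and 787. Of 11 myeloid markers 5 were tested, with sums of 498 and 519 against 437 and 441, and Itgam, Cd14 and S100a8 were below the filter, as were all 3 erythroid markers named. The part of these cell types in the values below was not tested.

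No gene of the respiratory chain or ATP synthase passed the test between the genotypes. Of 83 tested genes, 0 had an adjusted p below 0.05 by limma, and the smallest adjusted p was 0.938. Over all 12819 tested genes 23 passed, or 0.179%, with 22 higher (0.172%) and 1 lower (0.0078%) in deficient cells. At an unadjusted p below 0.05 there was 1 of 83 genes (Uqcr11, a small subunit of complex III), against 5.25% of all tested genes. In bulk RNA, fewer cells of a type and less RNA per cell cannot be told apart.

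The differences were small and mostly of one sign. Of the 83 genes, 66 read higher in deficient cells and 17 lower, against 47.5% higher among all tested genes. The median difference was 0.069 on the log2 scale, against -0.011 over all tested genes, and the quartiles lay at 0.029 and 0.11. The range ran from -0.42 for Cox4i2 to 0.28 for Ndufb1, and 6 genes differed by more than 0.2 in either direction. When each array was centred on its median instead, 80 of the 83 genes read higher, with a median of 0.15, and the median of all genes moved to 0.073. After quantile normalization 60 read higher, with a median of 0.049, and all genes stood at 0.0024. These members share arrays and, in many cases, like signal levels, so their common sign is not a count of independent findings.

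The precision of these genes was like that of other bright genes and higher than that of the array at large. The 95% interval of the difference, which is for 1 gene and is not widened for the number of genes, lay wholly within 0.5 of 0 (a 1.41-fold change either way) for 76 of the 83 genes, or 91.6%, against 48.9% of all tested genes and 95.5% of the 1104 other tested genes whose mean log2 signal reached the lower quartile of the set. The median SE was 0.091 for the set and 0.093 for those bright genes. The limma fit drew each SE toward a value expected at the gene's mean signal. Similar SEs at similar signal are therefore partly built in. For 81 of the 83 the interval excluded a 2-fold change in either direction. The exceptions were Cox4i2 and Ndufb4, both of low signal. The median absolute difference between genotypes, 0.077, stood beside 0.061 between the wildtype arrays and 0.099 between the deficient arrays.

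**Figure D1:**
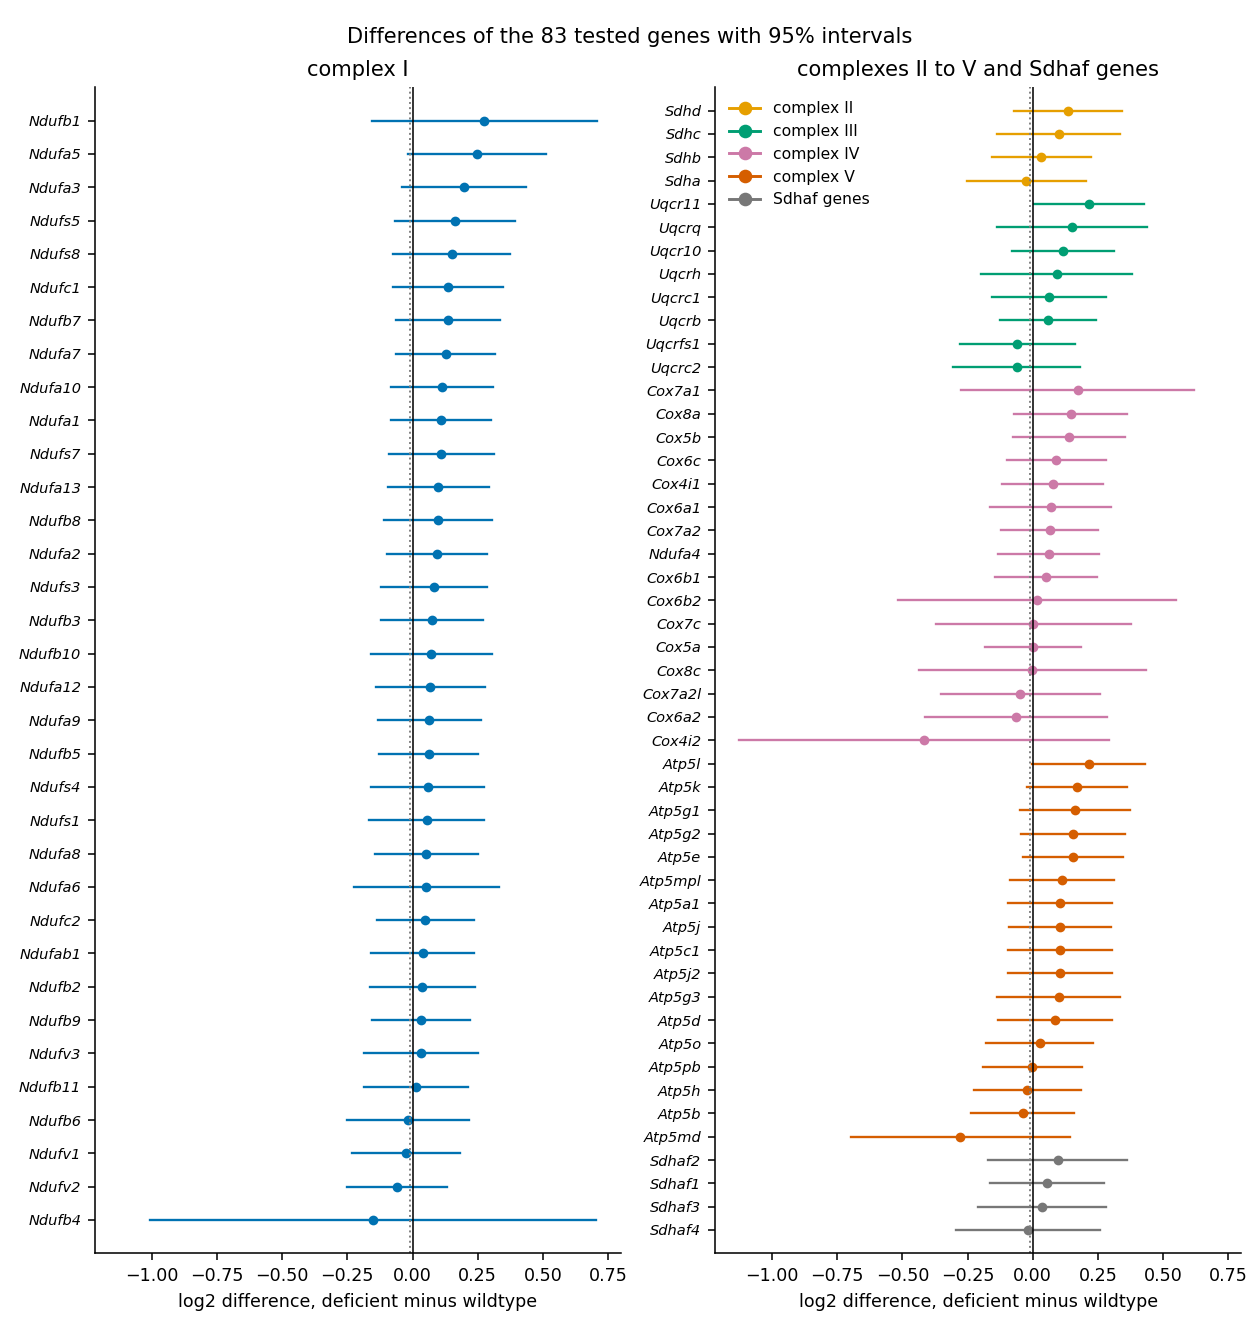
Log2 difference (x axis, deficient minus wildtype) of each of the 83 tested genes (y axis), with complex I on the left and the other complexes and Sdhaf genes on the right. Points are limma estimates, bars are 95% intervals for single genes from 2 arrays per genotype, the solid line is 0 and the dotted line is the median of all tested genes, -0.011. The interval of Uqcr11 alone lies wholly above 0, and the widest belong to Ndufb4 and Cox4i2.

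The deficient arrays stood apart from each other more than the wildtype arrays did. In 40 of the 83 genes (48.2%) both deficient arrays read above both wildtype arrays, against 15.9% of all tested genes. In 2 (2.41%), Ndufv2 and Cox4i2, both read below, against 17.7%. Deficient replicate 1 was the highest array in 57 of the 83 genes (68.7%), whereas it was highest in 24.6% of all tested genes. Taken alone, deficient replicate 1 stood above both wildtype arrays in 60 of the 83 genes (72.3%) and deficient replicate 2 in 47 (56.6%), against 32.2% and 30.2% of all tested genes. As a median deviation from each gene's own mean over the 4 arrays, the 83 genes stood at -0.049 and -0.038 in the wildtype replicates, 0.065 in deficient replicate 1 and 0.012 in deficient replicate 2. Without deficient replicate 1 the median difference was 0.041, with 65 genes higher, and without deficient replicate 2 it was 0.095.

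Bright genes as a class leaned the same way, by a smaller amount, though they were not matched to the set for signal. Among the 1104 other tested genes at or above the lower quartile of these 83, 64.2% read higher in deficient cells and the median difference was 0.031. Both deficient arrays read above both wildtype arrays in 22.0% of them, and deficient replicate 1 was the highest array in 37.3%. Deficient replicate 1 also had the lowest ratio of 3′ to 5′ signal, a measure of RNA integrity and labelling, for all 3 control transcripts. For the transferrin receptor control this ratio was 1.92 in deficient replicate 1, against 2.23 in deficient replicate 2 and 2.40 and 2.74 in the wildtype replicates. For Gapdh it was 0.746 against 0.778 to 0.808 in the other arrays, and for beta-actin 1.14 against 1.17 to 1.30. The part of signal level and RNA quality in the common sign of these genes was not tested.

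**Figure D2:**
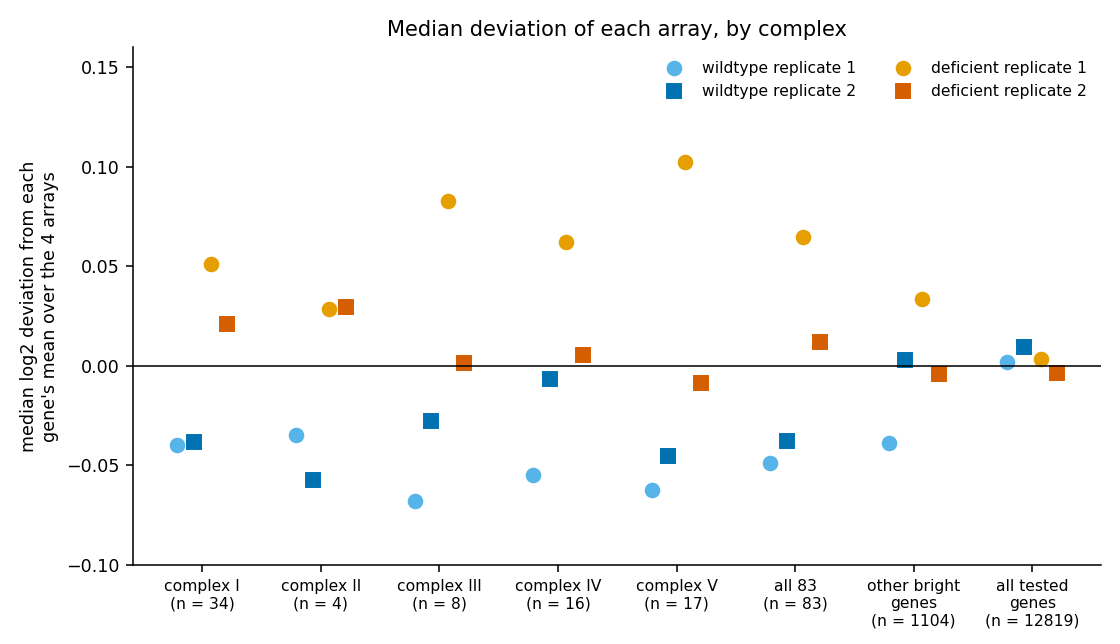
Median log2 deviation from each gene's own mean over the 4 arrays (y axis) for each complex, all 83 genes, 1104 other bright genes and all tested genes (x axis). Each point is 1 array, circles are replicate 1 and squares replicate 2 of a genotype. Deficient replicate 1 is the highest array in complexes I, III, IV and V, and for complex V it stands at 0.10 while deficient replicate 2 stands at -0.0088.

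**Figure D3:**
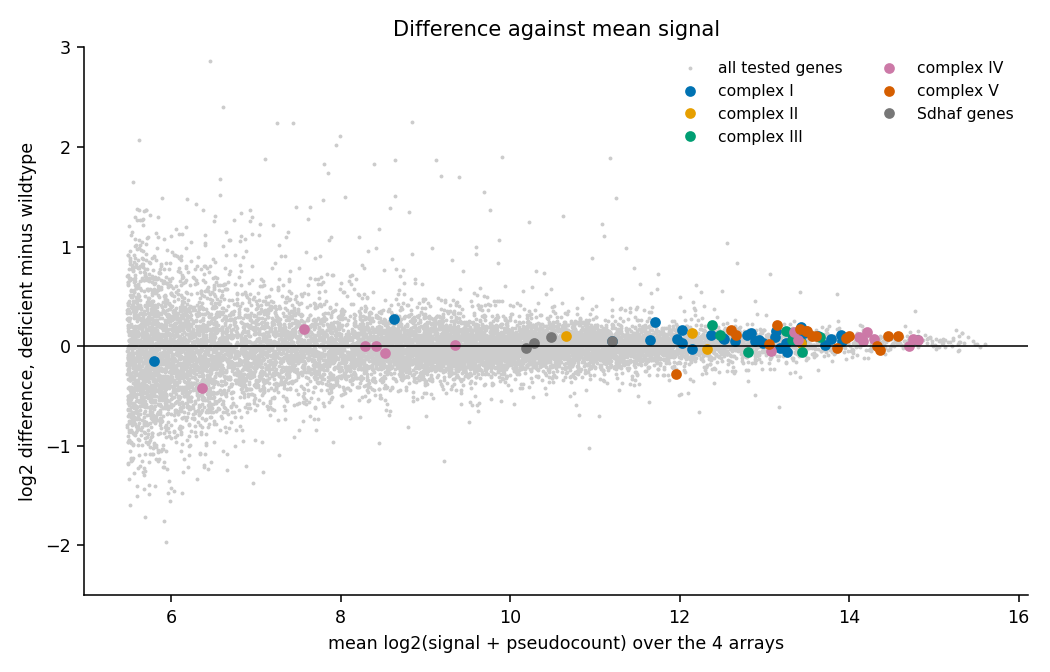
Log2 difference (y axis, deficient minus wildtype) against mean log2 signal over the 4 arrays (x axis) for all tested genes in grey and the genes of each complex in colour. Most of the coloured points lie at the bright end just above 0, and 1 tested gene falls outside the plotted range.

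Complex I, the NADH dehydrogenase, takes electrons from NADH and is the largest complex of the chain. All 34 of its genes were tested. Of these, 30 read higher in deficient cells and 4 lower, with a median of 0.071, and 0 passed the test. Both deficient arrays read above both wildtype arrays in 20 of the 34 (58.8%), against 15.9% of all tested genes and 22.0% of the other bright genes. Both read below in 1 (2.94%), against 17.7% and 7.97%. Deficient replicate 1 was the highest array in 21 (61.8%), against 24.6% and 37.3%. The median was 0.054 without deficient replicate 1 and 0.084 without deficient replicate 2.

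Ndufa5 encodes an accessory subunit of the arm that faces the matrix. Its signal was 3356 and 2767 in wildtype and 3768 and 3477 in deficient cells. The groups did not overlap, but the wildtype arrays lay further apart than the deficient arrays did. The difference was 0.25 ± 0.12 (SE, n = 2 per genotype; limma adjusted p = 0.953). Ndufb1, an accessory subunit of the membrane arm, had the highest difference of the whole set, 0.28 ± 0.19 (limma adjusted p = 0.971). It rested on 1 array, since the signal was 351 and 338 in wildtype, 350 in deficient replicate 1 and 503 in deficient replicate 2. Without deficient replicate 2 its difference was 0.022. Ndufa3, another membrane arm subunit and one singled out after its values were seen, read 9395 and 11260 in wildtype and 11920 and 11669 in deficient cells, a difference of 0.20 ± 0.10 with no overlap (limma adjusted p = 0.953).

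Among the catalytic core subunits of complex I, Ndufv1 carries the flavin that accepts electrons from NADH. Its signals of 4640 and 4456 in wildtype and 4349 and 4587 in deficient cells overlapped. Ndufv2, its iron-sulphur partner, read 9761 and 10263 in wildtype and 9627 and 9579 in deficient cells. Both deficient arrays were lower there, by a difference of -0.060 ± 0.084 (95% interval -0.25 to 0.13). Ndufs1, the largest iron-sulphur subunit, read 2250 and 2361 in wildtype and 2432 and 2356 in deficient cells, and these groups overlapped.
Ndufs3, a core subunit without an iron-sulphur cluster, read 5642 and 5667 in wildtype and 6203 and 5783 in deficient cells, with a difference of 0.083 ± 0.089. Ndufs7, which holds the cluster that hands electrons to ubiquinone, read 5208 and 4992 in wildtype and 5611 and 5401 in deficient cells, with a difference of 0.11 ± 0.088. Ndufs8, which holds the clusters before it, read 8010 and 9112 in wildtype and 9833 and 9137 in deficient cells, with a difference of 0.15 ± 0.098. In these last 3 genes the deficient arrays were the higher ones, and the limma adjusted p was 0.976, 0.973 and 0.971. At the lower end, Ndufb4 was read by a dim probe set with 50.7 and 37.4 in wildtype and 39.0 and 36.6 in deficient cells. Its interval of -1.01 to 0.70 leaves a 2-fold fall within range, so little can be said of it at this signal.

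Complex II, the succinate dehydrogenase, is also an enzyme of the citric acid cycle and has no mitochondrially encoded subunit. Its 4 genes were all tested, and 3 read higher and 1 lower, with a median of 0.066 and 0 passing the test. Sdha, the flavoprotein that oxidises succinate, read 4859 and 5509 in wildtype and 4908 and 5266 in deficient cells, with overlap. Sdhb, the iron-sulphur subunit, read 11146 and 10674 in wildtype and 11173 and 11134 in deficient cells; wildtype replicate 2 was the low array. The membrane anchors Sdhc and Sdhd had higher signals in both deficient arrays. Sdhc read 1603 and 1498 in wildtype and 1649 and 1674 in deficient cells. Sdhd read 4298 and 4299 in wildtype and 4879 and 4572 in deficient cells, a difference of 0.14 ± 0.090 (limma adjusted p = 0.971). The median of complex II was 0.099 without wildtype replicate 1 and 0.014 when the probe sets of each gene were averaged. The assembly factors matched by the letters of the rule stood in the same range: Sdhaf1 at 0.054, Sdhaf2 at 0.095, Sdhaf3 at 0.035 and Sdhaf4 at -0.018 on the log2 scale.

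Complex III, the cytochrome bc1 complex, passes electrons from ubiquinol to cytochrome c. Of its 8 genes 6 read higher and 2 lower, with a median of 0.077, and 0 passed the test. The median was 0.13 without deficient replicate 2, 0.11 without wildtype replicate 2, 0.043 without wildtype replicate 1, 0.035 without deficient replicate 1 and 0.045 after quantile normalization. Uqcr11, one of its small accessory subunits, read 5093 and 4823 in wildtype (mean 4958 ± 191, SD, n = 2) and 5995 and 5519 in deficient cells (5757 ± 337, SD, n = 2). The groups did not overlap, and deficient replicate 1 was the higher of the deficient pair. The difference was 0.21 ± 0.093, or 1.16-fold (95% interval 0.0031 to 0.43; limma adjusted p = 0.938).
Uqcrq, the ubiquinone-binding small subunit, read 9198 and 9327 in wildtype, 11798 in deficient replicate 1 and 8969 in deficient replicate 2. Its difference of 0.15 ± 0.13 rested on the first deficient array and was -0.046 without it. The core proteins Uqcrc1 and Uqcrc2 and the Rieske iron-sulphur protein Uqcrfs1 overlapped between genotypes. Uqcrc1 read 9809 and 10322 in wildtype and 11208 and 9852 in deficient cells. Uqcrc2 read 12292 and 10584 in wildtype and 10235 and 11668 in deficient cells. For Uqcrfs1 the signals were 7133 and 7413 in wildtype and 7453 and 6526 in deficient cells. The differences of the 3 genes were 0.0625, -0.062 and -0.060, each smaller than its SE of 0.096, 0.11 and 0.097.

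Complex IV, cytochrome c oxidase, reduces oxygen to water. Of its 19 genes 16 were tested, 11 read higher and 5 lower, with a median of 0.057 and 0 passing the test. The higher ones made up 68.75%, against 64.2% of the other bright genes. Both deficient arrays read above both wildtype arrays in 5 (31.25%), against 15.9% of all tested genes and 22.0% of the other bright genes. Both read below in 1 (6.25%), against 17.7% and 7.97%. Deficient replicate 1 was the highest array in 9 (56.25%), against 24.6% and 37.3%. The median was 0.034 without deficient replicate 1, 0.096 without deficient replicate 2 and 0.087 without wildtype replicate 2. It was 0.024 after quantile normalization and 0.020 when the probe sets of each gene were averaged. Cox4i1, the ubiquitous form of the largest nuclear subunit, read 19160 and 19935 in wildtype and 21361 and 19899 in deficient cells, with deficient replicate 1 the highest array. Cox5a read 27348 and 26329 in wildtype and 26717 and 26920 in deficient cells, and its difference of -0.0008 ± 0.081 has an interval of -0.19 to 0.18. Cox5b, its partner subunit that binds zinc, had a difference of 0.14 ± 0.0945 with overlap (limma adjusted p = 0.976 for Cox4i1, 0.999 for Cox5a and 0.971 for Cox5b). Cox8a, the common form of a small subunit, read 9449 and 10454 in wildtype and 11531 and 10472 in deficient cells, a difference of 0.14 ± 0.096 (limma adjusted p = 0.971). Its groups were separated only by the gap between 10454 and 10472. Ndufa4 read 10413 and 10672 in wildtype and 11335 and 10682 in deficient cells, again with deficient replicate 1 on top.

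Several subunits of complex IV have paired isoforms, a common form and one typical of heart and muscle, testis or low oxygen. No form that was tested passed, and Cox8b, Cox7b2 and Ndufa4l2 were not tested. Of the common forms, Cox6a1 read 24876 and 29369 in wildtype and 29395 and 27321 in deficient cells. Cox7a2 read 27585 and 28707 in wildtype and 29886 and 28981 in deficient cells. Cox6b1 differed by 0.0515 ± 0.085. Cox7a2 was the one of these 3 whose groups did not overlap, by a difference of 0.065 ± 0.0815. Cox7a2l, a relative of Cox7a2 that joins complexes III and IV into supercomplexes, read 8030 and 9601 in wildtype and 7518 and 9592 in deficient cells. In both genotypes its replicate 1 was the low array, and the groups overlapped.
The heart and muscle forms had low signal. Cox6a2 read 359 and 361 in wildtype and 324 and 364 in deficient cells. Cox7a1 read 169 and 158 in wildtype and 194 and 179 in deficient cells, a difference of 0.17 ± 0.20 with no overlap (limma adjusted p = 0.976). Cox8b was below the filter, at 8.22 to 29.3. Of the testis forms, Cox6b2 read 492 and 815 in wildtype and 554 and 741 in deficient cells, a spread within each genotype that was far larger than its difference of 0.016 ± 0.23. Cox8c, in its brighter probe set, read 365 and 290 in wildtype and 286 and 369 in deficient cells. A dimmer Cox8c probe set, lower in both deficient arrays, is given further down. Cox7b2, also a testis form, was below the filter at 0.991 to 26.4. Of the forms linked to low oxygen, Cox4i2 read 79.4 and 81.6 in wildtype and 46.8 and 68.0 in deficient cells. Both deficient arrays were lower, by -0.42 ± 0.31 (95% interval -1.13 to 0.29; limma adjusted p = 0.971). Ndufa4l2, the relative of Ndufa4 induced by hypoxia, was below the filter at 12.9 to 49.2. Cox7b had no probe set with a single symbol and was not analysed here.

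Complex V, the ATP synthase, has a membrane rotor turned by protons and a catalytic head in the matrix. Of its 17 genes 13 read higher and 4 lower, with 0 passing the test. The median, 0.10, was the highest of the complexes, but complex II stood higher without wildtype replicate 1 (0.099 against 0.094). Without deficient replicate 1, complex V stood at 0.041, below complex II at 0.059 and complex I at 0.054. Both deficient arrays read above both wildtype arrays in 9 of the 17 (52.9%), against 15.9% of all tested genes and 22.0% of the other bright genes. Both read below in 0, against 17.7% and 7.97%. Deficient replicate 1 was the highest array in 16 of the 17 (94.1%), against 24.6% and 37.3%. The median deviation of the 17 genes was -0.062 and -0.045 in the wildtype replicates, 0.10 in deficient replicate 1 and -0.0088 in deficient replicate 2. After quantile normalization the median was 0.065. The difference between complex V and the other complexes was not tested.

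Among the small membrane subunits, Atp5l encodes subunit g and Atp5k subunit e, which help the enzyme form dimers. Atp5l read 8486 and 8356 in wildtype and 10443 and 9149 in deficient cells, a difference of 0.21 ± 0.095 (limma adjusted p = 0.947). Atp5k read 10113 and 10467 in wildtype and 11760 and 11391 in deficient cells, a difference of 0.17 ± 0.084 (limma adjusted p = 0.953). In both genes the groups did not overlap and deficient replicate 1 was the highest array. Atp5md, the small subunit known as DAPIT, went the other way, with 5424 and 3529 in wildtype and 3307 and 3936 in deficient cells. Wildtype replicate 1 was the high array and the other wildtype array lay within the deficient range. Its difference was -0.28 ± 0.18 (limma adjusted p = 0.971). Without wildtype replicate 1 it was 0.0315, and without wildtype replicate 2 it was -0.59 with an adjusted p of 0.0229, a fit in which the lone wildtype array is assumed to vary like the deficient ones. No other gene of the set passed the test when any 1 array was left out.

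The ring of the rotor is made of subunit c, which 3 genes encode with the same mature protein. Atp5g1 read 5928 and 5841 in wildtype and 6930 and 6253 in deficient cells. Atp5g2 read 10920 and 10835 in wildtype and 12674 and 11584 in deficient cells. Both were higher in each deficient array, by 0.16 ± 0.092 and 0.16 ± 0.088 (limma adjusted p = 0.963 for Atp5g1 and 0.96 for Atp5g2). Atp5g3 overlapped, with 19998 and 23676 in wildtype and 24265 and 22381 in deficient cells, a difference of 0.10 ± 0.10. The catalytic head is built from Atp5a1 (alpha) and Atp5b (beta) around the shaft Atp5c1 (gamma). Atp5a1 read 11697 and 11587 in wildtype and 13092 and 11975 in deficient cells, a difference of 0.10 ± 0.0875 with no overlap. Atp5b read 21099 and 21622 in wildtype and 21708 and 19900 in deficient cells, a difference of -0.039 ± 0.086. Atp5c1 read 22598 and 24736 in wildtype and 26127 and 24723 in deficient cells, a difference of 0.10 ± 0.088. The latter pair overlapped, and in all 3 genes deficient replicate 1 was the highest array.

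**Figure D4:**
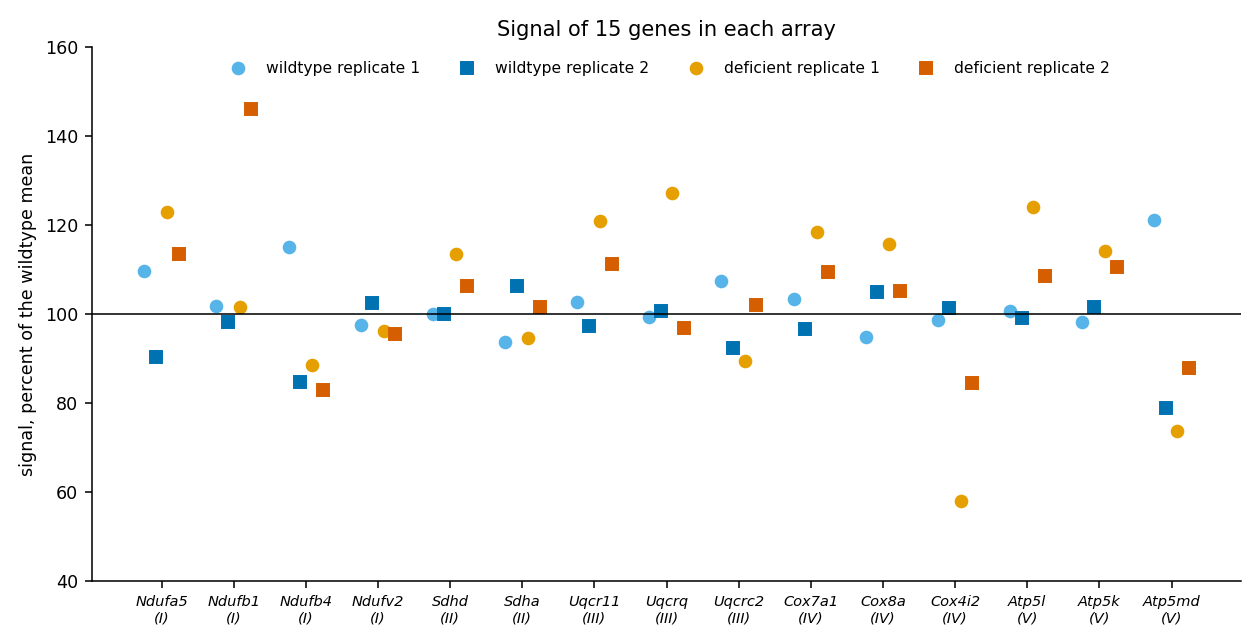
Signal of 15 genes in each array as a percent of the gene's wildtype mean (y axis), with the complex below each symbol (x axis). Each point is 1 array and the line at 100 is the wildtype mean. In Uqcr11, Atp5l and Atp5k both deficient arrays lie above both wildtype arrays, whereas in Ndufb1, Uqcrq and Atp5md 1 array stands apart from the other 3.

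Probe sets of the same gene did not always give the same sign. Of the 175 probe sets 164 were above the filter, 124 of them read higher and 40 lower, and 0 passed the test when every probe set was tested. In 24 of the 49 genes with several probe sets above the filter, the differences had opposite signs, and the median spread between probe sets of a gene was 0.13 on the log2 scale. The spread exceeded 0.5 with opposite signs in Uqcrq, from -0.37 to 0.33, and in Ndufs8, from -0.26 to 0.24. In Uqcrq the outlying probe sets were dim, with signals of 6.26 to 116. In Ndufs8 only the dimmest probe set, with signals of 377 to 585, was below 0. Ndufb11 stood at 0.013 in its brightest probe set. Another of its probe sets read 7020 and 7108 in wildtype and 9294 and 8160 in deficient cells. The difference there was 0.30 ± 0.098 (limma adjusted p = 0.744 over every probe set). The widest spread, 2.05, was in Cox8c. Its brighter probe set stood at -0.0012, while the dimmer one read 219 and 117 in wildtype and 33.6 and 22.7 in deficient cells. Both deficient arrays were lower in the dim probe set, by -2.05 ± 0.35 (limma adjusted p = 0.119 over every probe set).

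Other nuclear genes of mitochondrial energy metabolism were set beside the subunits, and none of their listed genes passed the test. Of 37 tested assembly factors 27 read higher and 10 lower, with a median of 0.077. The one with the smallest p was Ecsit, which takes part in complex I assembly and in Toll-like receptor signalling, with 1113 and 1054 in wildtype and 1416 and 1236 in deficient cells. It did not overlap between genotypes, and its difference was 0.29 ± 0.12 (limma adjusted p = 0.917). Next came Nubpl, an iron-sulphur assembly factor of complex I, at 0.20 ± 0.10 (limma adjusted p = 0.953). Of 23 electron carrier and ATP export genes 18 read higher and 5 lower, with a median of 0.066. They include Cyc1, cytochrome c1 of complex III, which the letters of the rule do not match. Its difference was 0.14 ± 0.11 with overlap (limma adjusted p = 0.971). Etfb, part of the flavoprotein that collects electrons from fatty acid oxidation, read 4371 and 4646 in wildtype and 5312 and 5171 in deficient cells, a difference of 0.22 ± 0.090 with no overlap (limma adjusted p = 0.917). Slc25a3, which imports phosphate for the ATP synthase, stood at 0.20 ± 0.092 (limma adjusted p = 0.947).

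The citric acid cycle, which supplies NADH and succinate, had 16 tested genes, 12 higher and 4 lower, with a median of 0.031. Its 2-oxoglutarate dehydrogenase showed both signs among its subunits. Ogdh, the first subunit of that enzyme, read 1108 and 1025 in wildtype and 799 and 894 in deficient cells. Dlst, its second subunit, read 2872 and 2426 in wildtype and 3250 and 3081 in deficient cells. Neither overlapped between genotypes, and the differences were -0.33 ± 0.12 for Ogdh and 0.26 ± 0.11 for Dlst (limma adjusted p = 0.833 and 0.933).

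Genes that copy and transcribe mitochondrial DNA were balanced, with 8 of 17 higher, 9 lower and a median of -0.023. The smallest p belonged to Slirp, an RNA-binding protein of mitochondrial transcripts, at 0.12 ± 0.0865, followed by the elongation factor Tefm at 0.19 ± 0.16 (limma adjusted p = 0.971 and 0.973). Of the mitochondrially encoded subunits the array annotation named 1, ND5 of complex I, with 12800 and 11636 in wildtype and 10824 and 11760 in deficient cells. These overlapped, with a difference of -0.11 ± 0.093 (limma adjusted p = 0.973). The factors that regulate respiratory genes mostly read lower: 9 of 12 tested, with a median of -0.065. In 7 of the 12 both deficient arrays were below both wildtype arrays, against 17.7% of all tested genes. Nrf1, whose binding letters are shown above, read 810 and 773 in wildtype and 590 and 730 in deficient cells, a difference of -0.26 ± 0.14 (limma adjusted p = 0.953). Esrra, an oestrogen-related receptor, read 655 and 593 in wildtype and 557 and 500 in deficient cells, a difference of -0.23 ± 0.14 (limma adjusted p = 0.964). Ppargc1a, their best known coactivator, was below the filter at 23.2 to 32.2.

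**Figure D5:**
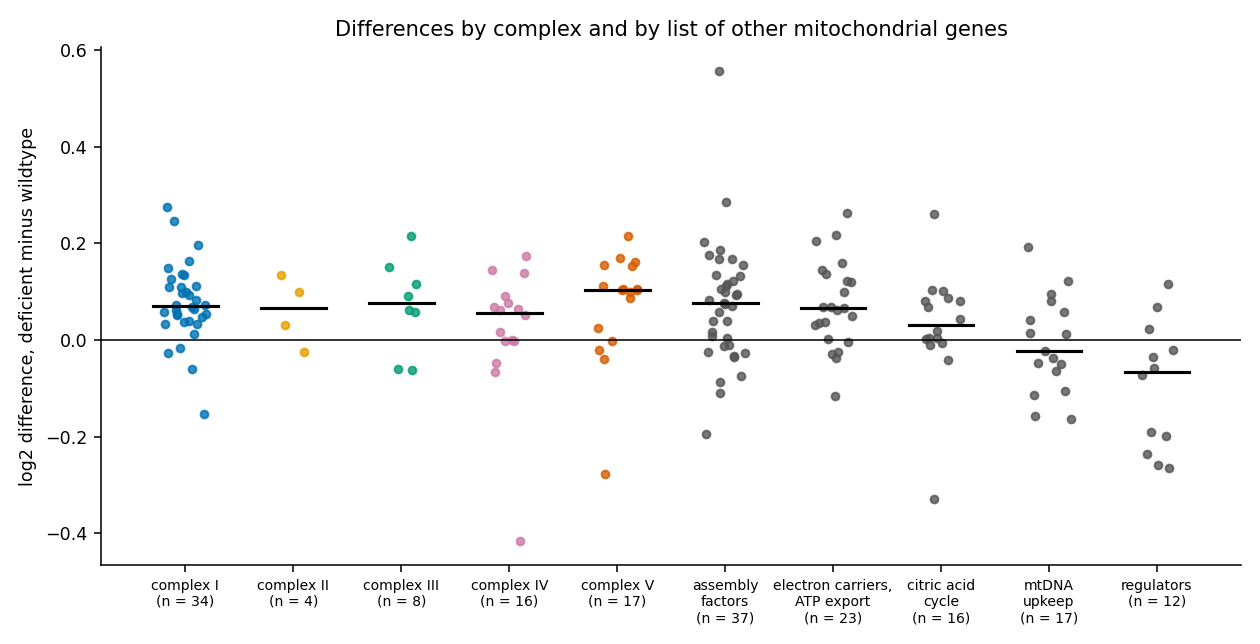
Log2 difference (y axis, deficient minus wildtype) of the tested genes of each complex and of 5 lists of other mitochondrial genes (x axis). Each point is 1 gene, with sideways jitter, and bars are medians. The medians of the complexes lie between 0.057 and 0.10, and that of the respiratory gene regulators lies at -0.065.

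The genes of the set lay on 19 chromosomes. Chromosome 11, which carries the miR-146a gene, held 4 of them. The nearest, Uqcrq, was 67 tested genes away from it, and Uqcr10 lay 131 tested genes away on the other side. Atp5g1 and Atp5h lay 537 and 778 tested genes away on the side of Uqcrq.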

How the data were processed

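Signals were deposited by the authors as 1 linear intensity per probe set and array. MAS5 and Transcriptome Analysis Console are named in the submitters' processing notes, without versions; the 2% trimmed mean of every deposited column was 500. Probe sets were named from the platform annotation: of 45037 non-control probe sets, 34945 had 1 symbol, 932 several and 9160 none. Genes were taken from probe sets with 1 symbol, keeping the one with the highest mean signal. The deposited signals were turned into log2(signal + 14.7), the 25th percentile of all values, and genes whose mean log2 lay under the 40th percentile of probe sets, at a signal of 29.9, were left out. Genotypes were compared with limma 3.58.1 in R 4.3.3 (lmFit and eBayes with an intensity trend, two-sided, Benjamini-Hochberg over 12819 genes, threshold 0.05), checked on simulated data. The simulated differences were larger than that of any tested gene of the set. The check therefore does not show how well differences as small as these are found.

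Of the 86 genes 83 passed the filter; Cox8b, Cox7b2 and Ndufa4l2 did not. Groups came from the labels, which call the replicates biological without naming separate mice or cultures, so p-values measure only the spread between these samples. With 2 arrays per genotype the number of arrays limits the precision. The members and lists were chosen with earlier results of these data known, and members are not replicates. The other bright genes and the single-array counts were chosen after seeing the data. Genes were named by rule: fixed core subunits and isoforms, any with an unadjusted p below 0.05, the 2 highest and 2 lowest differences per complex, the 2 smallest p-values per list, and probe sets that disagreed. Alternatives tried were the pseudocount, filter, scaling, probe set choice, intensity trend, replicate block and leaving out each array.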

Additional observations from a re-analysis of the deposited data

How the results depend on the processing

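Under 14 alternatives the medians of the set and of every complex stayed above 0, and 0 genes of the set passed the test, except Atp5md without wildtype replicate 2. Over all genes, where 23 passed, the count was 2 with no filter, 50 with median centring, 14 with the mean of probe sets, 14 with the replicate block, 0 with no trend (765 at an unadjusted p below 0.05 by limma) and 19 to 100 when 1 array was left out; for the set that range was 0 to 1. It was 99 without wildtype replicate 1, 100 without wildtype replicate 2, 45 without deficient replicate 1 and 19 without deficient replicate 2. Median centring moved the median of the set to 0.1516, of complexes I to V to 0.1537, 0.1488, 0.1598, 0.1397 and 0.1874, and of all genes to 0.073. Quantile normalization gave 0.0526, 0.0548, 0.045, 0.0241 and 0.0651 for complexes I to V, and the mean of probe sets 0.06, 0.0141, 0.065, 0.0204 and 0.0816. With 1 array left out the medians ran from 0.0413 to 0.0954 for the set, 0.0538 to 0.0837 for complex I, 0.0581 to 0.0992 for II, 0.0347 to 0.1333 for III, 0.0342 to 0.0957 for IV and 0.0406 to 0.1546 for V. Over all genes, same-numbered arrays hardly deviated together (r = 0.054 over 12819 genes), so the numbers were not taken to pair samples. For T cell markers, replicate 2 stood above replicate 1 in both genotypes, by a median of 0.20 in wildtype and 0.14 in deficient cells. With the block 0 genes of the set passed and its median stayed at 0.069.

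Of 41 named genes of the set that were tested, 23 changed sign under some alternative, none with a difference beyond 0.28 either way, and the cause was not tested. With median centring the values were Atp5b 0.0438, Cox5a 0.0823, Cox6a2 0.0179, Cox7a2l 0.0349, Cox8c 0.0819, Ndufv1 0.0575, Ndufv2 0.0235, Sdha 0.0579, Uqcrc2 0.0214 and Uqcrfs1 0.023. With the mean of probe sets they were Atp5c1 -0.0763, Cox5a 0.0118, Cox5b -0.0112, Cox7a2l 0.0062, Ndufv1 0.0026, Ndufv2 0.0043 and Sdhd -0.004. With quantile normalization they were Cox6a1 -0.0006, Cox7a2 -0.0079, Cox8c 0.0299 and Sdhb -0.0007. Leaving out 1 array gave ranges of -0.102 to 0.0234 for Atp5b, -0.0228 to 0.2206 for Atp5g3, -0.5864 to 0.0315 for Atp5md, -0.0282 to 0.0265 for Cox5a, -0.0515 to 0.1879 for Cox6a1, -0.1463 to 0.016 for Cox6a2, -0.0037 to 0.1066 for Cox6b1, -0.34 to 0.3724 for Cox6b2, -0.2236 to 0.1274 for Cox7a2l, -0.1768 to 0.1744 for Cox8c, -0.3176 to 0.0116 for Ndufb4, -0.0639 to 0.0127 for Ndufv1, -0.1155 to 0.0651 for Sdha, -0.0304 to 0.1553 for Uqcrc1, -0.1695 to 0.0461 for Uqcrc2, -0.1558 to 0.0356 for Uqcrfs1 and -0.0464 to 0.3486 for Uqcrq. Low signal limits Cox4i2 and Ndufb4, whose intervals did not exclude a 2-fold change.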

Other observations

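Probe sets that name several genes were kept out of the set; Ndufa11 and Ndufs6 were read by such probe sets alone, while Ndufb4, Ndufb2, Ndufs5, Ndufa13 and Ndufab1 also had probe sets of their own. A probe set shared by Ndufb4 and its copies Ndufb4b and Ndufb4c read 6401 and 6402 in wildtype and 6702 and 7045 in deficient cells, and another for the same 3 genes read 4714 and 4806 against 4984 and 5105. In both, the deficient arrays were the higher ones, by 0.10 ± 0.0895 and 0.0835 ± 0.090 (limma adjusted p = 0.964 and 0.97). These signals cannot be divided between the near-identical copies. Ndufa11, shared with Ndufa11b, read 3499 and 3295 in wildtype and 3687 and 3793 in deficient cells, a difference of 0.14 ± 0.095 with no overlap (limma adjusted p = 0.954). Ndufs6, a zinc-binding accessory subunit, read 7805 and 7144 in wildtype and 7166 and 7555 in deficient cells, with overlap. A dim probe set shared by Ndufb2 and Adck2 read 93.9 and 40.9 in wildtype and 160 and 107 in deficient cells, a difference of 0.91 ± 0.36 (limma adjusted p = 0.881), while the brighter probe set of Ndufb2 alone read 4106 and 4124 against 4235 and 4209.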
